A study of Caenorhabditis elegans with 9 samples.

Results

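The genes described here are 9 moulting genes of *C. elegans*, *mlt-7*, *mlt-8*, *mlt-9*, *mlt-10*, *mlt-11*, *nas-36*, *nas-37*, *noah-1* and *noah-2*. They were chosen by name, with earlier results of these data known, and matched to their WormBase identifiers. All 9 were among the 20541 genes measured in every library. RNA of whole worms was sequenced in 9 libraries of 3 groups with 3 libraries each. The groups were wild-type (WT) worms on *P. aeruginosa* PA14, *egl-44(mt2247)* mutants on *E. coli* OP50, which is a standard laboratory food, and WT worms on *E. coli* OP50. By the labels, all groups were young adults when placed on their bacteria, for 24 h at 25°C. PA14 is a strain that infects and kills the worm, and *egl-44* encodes the worm TEAD transcription factor, the DNA-binding partner of YAP. The question was how exposure to PA14 and the *egl-44* mutation changed the transcriptome, and both comparisons used the same 3 libraries of WT worms on OP50. The sources used here do not say that the 3 libraries of a group came from separate cultures, so p-values measure only the spread between these libraries. This spread was larger than the error of counting reads, at a chi-square per gene of 18.1 to 130.6 between libraries of a group. Its source was not tested. A library is a bulk sample of many worms, so a change in the share of a cell type or stage and a change in RNA per cell cannot be told apart.

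A nematode grows by replacing its cuticle at the end of each larval stage. The epidermis secretes a provisional matrix and a new collagen cuticle under the old one, the old cuticle is loosened by proteases, and the animal then sheds it in ecdysis. Moulting genes are known to be transcribed in pulses, once for each larval stage, and adults no longer moult. The level of such a gene in a bulk sample therefore depends on which stages are in it.

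All values are FPKM, a read count scaled by transcript length and by the size of the library. The libraries held between 13638251 and 17831389 reads, recovered from the steps between FPKM values. A single read on 1 kb of transcript was worth 0.0561 to 0.0733 FPKM. The fewest reads of any of the 9 genes in a library were 56, for *nas-36* in PA14 replicate 2, which gave 1.58 FPKM with an exact 95% Poisson interval of 1.20 to 2.06 FPKM. This interval covers counting error only. No value of the 9 genes was near the limit of detection.

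The libraries were checked against their labels before the comparisons. All 9 are labelled as adult worms, but the *egl-44* libraries held little of the defining transcripts of egg-laying adults. The 6 vitellogenin genes, which encode yolk proteins made by the adult intestine, summed to between 9.55 and 25.2 FPKM in *egl-44* libraries, against 1893 to 5999 FPKM in WT libraries on OP50. The 14 oocyte and eggshell genes summed to between 37.2 and 79.3 FPKM in *egl-44* libraries, against 1344 to 3227 FPKM in WT libraries on OP50. All 6 and all 14 were lower by limma (adjusted p below 0.05 and over 2-fold), as were all 7 germline genes. By this rule 23.1% of all genes tested were lower. None of these vitellogenin, oocyte, eggshell and germline genes was listed at 0 in any library. Genotype and the stage or germline content of the worms can therefore not be told apart in the *egl-44* comparison. PA14 replicate 2 also stood apart. Its 14 embryo genes summed to 107 FPKM, against 35.9 and 24.5 FPKM in the other PA14 libraries, and *hch-1*, the hatching protease, was at 31.8 FPKM there and at or below 0.550 FPKM in the other 8 libraries. Other sums were lower there than in PA14 replicates 1 and 3. The 5 gut genes summed to 474 FPKM, against 1174 and 1152 FPKM. The 6 muscle genes summed to 1537 FPKM, against 2392 and 2823 FPKM, and the 7 adult collagens to 2191 FPKM, against 5566 and 3920 FPKM. Over genes that averaged 0.5 FPKM or more, PA14 replicate 2 had Pearson correlations of 0.927 with replicate 1 and 0.870 with replicate 3. Pairs of WT libraries on OP50 correlated at 0.937 to 0.984. The labels give no batch, and the part of a batch in any difference was not tested. The sample numbers of the *egl-44* libraries are far from those of the WT libraries. A batch that follows this split cannot be told apart from genotype. The *egl-44* transcript itself was at 32.5, 37.8 and 28.2 FPKM in *egl-44* libraries and at 30.4, 37.5 and 32.9 FPKM in PA14 libraries, against 16.1, 21.5 and 15.97 FPKM in WT libraries on OP50. Both sets of libraries lay wholly above the OP50 libraries, with log2 fold changes of 0.86 ± 0.20 in *egl-44* worms and 0.90 ± 0.19 on PA14 (SE; limma adjusted p = 0.0103 and 0.109). The allele's lesion is not given in the labels, so this level does not check the genotype.

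On PA14, none of the 9 genes passed a fold change over 2 together with an unadjusted p below 0.05, and none passed when the p was adjusted by Benjamini-Hochberg. Of 15760 genes tested, 8.78% passed the first rule and 0.799% the second, in either direction. In *egl-44* worms, 7 of the 9 genes were higher than in WT worms on OP50 by the first rule, where 17.9% of 15488 genes were higher, and 6 of 9 by the adjusted rule, where 16.6% were. The 7 were *mlt-8*, *mlt-9*, *mlt-10*, *mlt-11*, *nas-37*, *noah-1* and *noah-2*, and *mlt-10* was the one that passed only without adjustment. The 2 others, *mlt-7* and *nas-36*, overlapped between the groups. Over the 9 genes the median of the log2 fold changes was 0.10 on PA14, against 0.25 over all genes tested, and 2.46 in *egl-44* worms, against 0.12 over all genes tested.

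**Figure D1:**
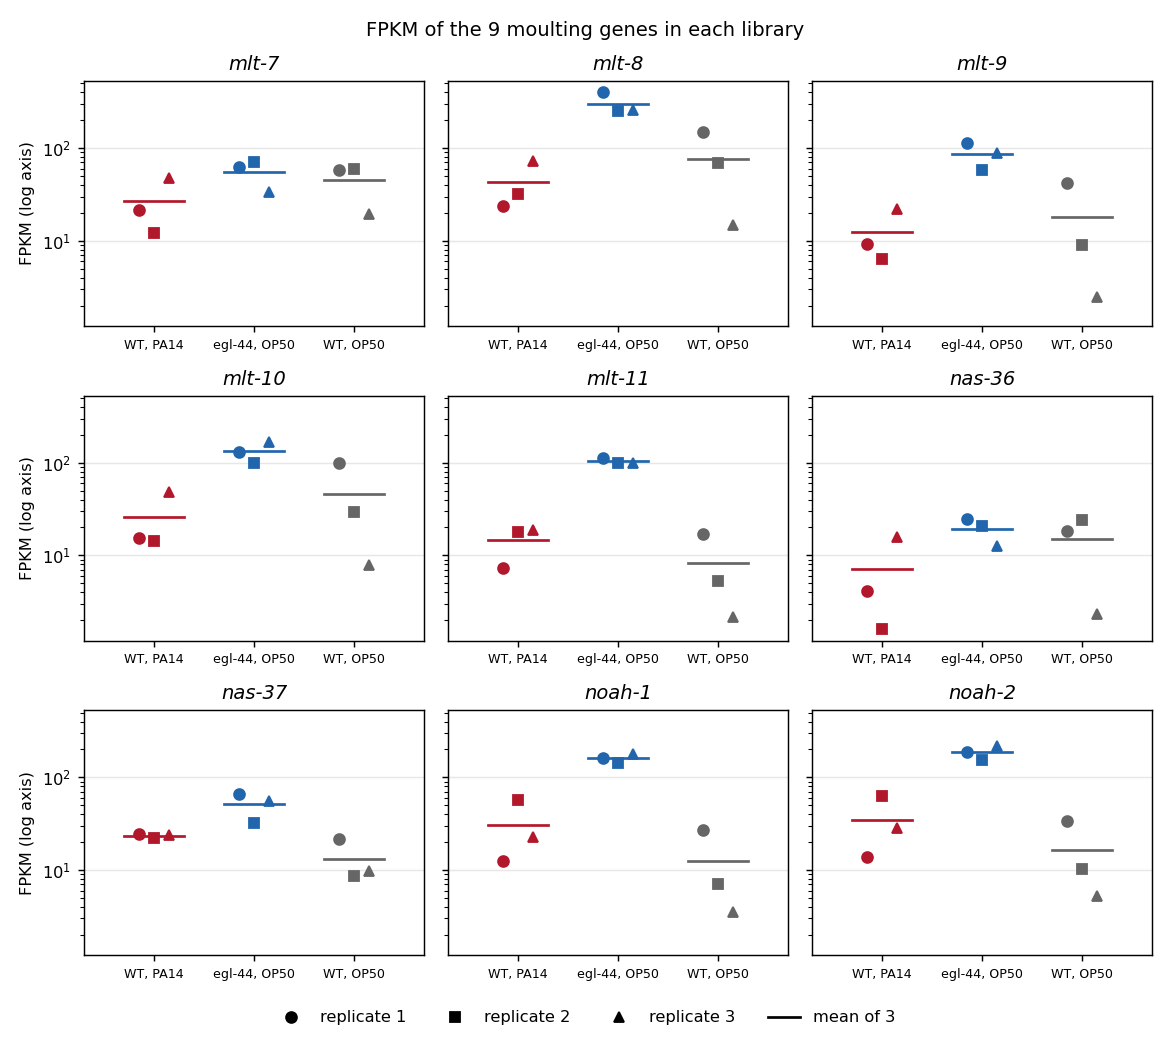
FPKM of the 9 genes on a log axis in WT worms on PA14 (red), *egl-44* worms on OP50 (blue) and WT worms on OP50 (grey), with a symbol for each replicate and a line for the mean of 3 libraries. The *egl-44* libraries lie above every WT library on OP50 for 7 genes, while the WT libraries on OP50 spread widely, from 2.50 to 42.4 FPKM for *mlt-9*.

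*noah-1* (WBGene00016422, chromosome I:5874416-5878958, minus strand, genome build WBcel235) and *noah-2* (WBGene00009926, chromosome IV:14091254-14096626, plus strand) encode zona pellucida domain proteins of the provisional matrix over the epidermis. *noah-1* was at 161, 142 and 178 FPKM in *egl-44* libraries and at 12.5, 57.1 and 22.9 FPKM in PA14 libraries, against 26.7, 7.11 and 3.50 FPKM in WT libraries on OP50. All *egl-44* libraries were above all WT libraries, and the PA14 and OP50 libraries overlapped, with PA14 replicate 2 the highest WT library. *noah-2* followed the same order, at 188, 156 and 216 FPKM in *egl-44* libraries and 13.96, 62.1 and 28.6 FPKM in PA14 libraries, against 34.2, 10.2 and 5.21 FPKM in WT libraries on OP50. In *egl-44* worms *noah-1* was higher by a log2 fold change of 4.09 ± 0.64 (SE; limma adjusted p = 0.0026, 3 libraries against 3). The change of *noah-2* was 3.85 ± 0.61 (SE; limma adjusted p = 0.0027). On PA14 the log2 fold changes were 1.47 ± 0.81 for *noah-1* and 1.21 ± 0.77 for *noah-2* (SE; limma adjusted p = 0.304 and 0.345), and neither passed the test.

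The level of *noah-1* relative to *noah-2* stayed within a narrow range. It was between 0.673 and 0.919 in all 9 libraries, although *noah-1* itself varied from 3.50 to 178 FPKM. Within this range it was lowest in WT libraries on OP50, at 0.782, 0.698 and 0.673. It was 0.799 to 0.919 in PA14 libraries and 0.827 to 0.912 in *egl-44* libraries, and this difference was not tested.

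*mlt-11* (WBGene00012186, chromosome V:20667205-20678537, plus strand) encodes a large secreted protein with Kunitz-type protease inhibitor domains. It was at 112, 98.2 and 100.4 FPKM in *egl-44* libraries and at 7.39, 17.7 and 18.6 FPKM in PA14 libraries, against 17.1, 5.28 and 2.17 FPKM in WT libraries on OP50. The *egl-44* libraries agreed closely and were all above the WT libraries, while PA14 and OP50 libraries overlapped. The log2 fold change was 4.01 ± 0.62 in *egl-44* worms (SE; limma adjusted p = 0.0025) and 1.11 ± 0.71 on PA14 (SE; limma adjusted p = 0.348).

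*nas-37* (WBGene00003553, chromosome X:9944844-9949063, minus strand) and *nas-36* (WBGene00003552, chromosome I:7527224-7531715, plus strand) encode astacin metalloproteases needed to open and shed the old cuticle. *nas-37* was at 65.9, 32.0 and 55.3 FPKM in *egl-44* libraries and at 24.5, 21.9 and 24.0 FPKM in PA14 libraries, against 21.6, 8.56 and 9.67 FPKM in WT libraries on OP50. The *egl-44* libraries and the PA14 libraries both lay wholly above the OP50 libraries, but the lowest PA14 library, at 21.9 FPKM, was close to the highest OP50 library, at 21.6 FPKM. In *egl-44* worms the log2 fold change was 1.96 ± 0.41 (SE; limma adjusted p = 0.0078). On PA14 it was 0.92 ± 0.35 (SE; limma unadjusted p = 0.037, adjusted p = 0.232), a fold change of 1.89 that is under the limit of 2. *nas-37* was the only one of the 9 genes whose PA14 and OP50 libraries did not overlap. Over all genes tested, the PA14 libraries lay apart and higher for 23.7% and apart and lower for 6.53%. The two-sided exact permutation test gave p = 0.1 for *nas-37* in both comparisons, the smallest p that 3 against 3 libraries can give.

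*nas-36* did not share this pattern. It was at 24.5, 20.5 and 12.7 FPKM in *egl-44* libraries and at 4.16, 1.58 and 15.7 FPKM in PA14 libraries, against 18.3, 24.1 and 2.31 FPKM in WT libraries on OP50. Its groups overlapped in both comparisons, and WT replicates on OP50 differed by 10.4 times. The log2 fold changes were 0.81 ± 0.80 in *egl-44* worms and -1.01 ± 1.03 on PA14 (SE; limma adjusted p = 0.402 and 0.524). The level of *nas-37* relative to *nas-36* ranged between 0.356 and 13.8 over the 9 libraries, so the pair of proteases did not keep a constant ratio.

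*mlt-7* (WBGene00022743, chromosome II:4393007-4404850, plus strand) encodes a haem peroxidase that acts in cuticle cross-linking. It was at 61.9, 70.3 and 33.8 FPKM in *egl-44* libraries and at 21.3, 12.1 and 47.4 FPKM in PA14 libraries, against 58.6, 58.8 and 19.2 FPKM in WT libraries on OP50. The 3 groups overlapped. The log2 fold changes were 0.38 ± 0.49 in *egl-44* worms and -0.80 ± 0.61 on PA14 (SE; limma adjusted p = 0.521 and 0.411).

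*mlt-8* (WBGene00021095, chromosome II:569210-572110, minus strand) and *mlt-9* (WBGene00008605, chromosome X:15101786-15107797, minus strand) were named for the failure to shed the cuticle when they are silenced. *mlt-8* was the most abundant of the 9 genes in each *egl-44* library, at 402, 249 and 257 FPKM, and was at 23.8, 32.1 and 72.6 FPKM in PA14 libraries, against 148, 68.3 and 14.8 FPKM in WT libraries on OP50. *mlt-9* was at 113, 57.8 and 89.3 FPKM in *egl-44* libraries and at 9.23, 6.33 and 21.8 FPKM in PA14 libraries, against 42.4, 8.95 and 2.50 FPKM in WT libraries on OP50. For both genes the *egl-44* libraries lay above every WT library, and the PA14 libraries lay inside the range of the OP50 libraries. The log2 fold changes in *egl-44* worms were 2.46 ± 0.76 for *mlt-8* and 2.98 ± 0.89 for *mlt-9* (SE; limma adjusted p = 0.0305 and 0.0264). On PA14 they were -0.48 ± 0.84 and 0.10 ± 0.96 (SE; limma adjusted p = 0.717 and 0.954).

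*mlt-10* (WBGene00015646, chromosome II:546705-552032, plus strand) is the founding member of a nematode family of secreted proteins. It was at 131, 100.4 and 168 FPKM in *egl-44* libraries and at 15.4, 14.4 and 48.3 FPKM in PA14 libraries, against 98.8, 29.5 and 7.95 FPKM in WT libraries on OP50. The lowest *egl-44* library was only just above the highest OP50 library. The log2 fold change was 2.16 ± 0.81 in *egl-44* worms (SE; limma unadjusted p = 0.0333, adjusted p = 0.0557) and -0.38 ± 0.92 on PA14 (SE; limma adjusted p = 0.794).

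In the annotation *mlt-10* overlaps *lips-7* and *T27A1.3* on its own strand, and *nas-37* overlaps *C17G1.5* on the other strand. Nothing in the sources used here says whether reads were counted by strand, and reads shared with these neighbours cannot be told apart. *lips-7* was at 40.5, 27.3 and 16.03 FPKM in *egl-44* libraries, against 16.1, 14.6 and 2.84 FPKM in WT libraries on OP50. *C17G1.5* was at 8.45, 5.78 and 10.01 FPKM in *egl-44* libraries, against 4.83, 5.92 and 3.51 FPKM in WT libraries on OP50. *T27A1.3* was at or below 3.52 FPKM in all libraries. Each neighbour was lower than the gene it overlaps in all 9 libraries.

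**Figure D2:**
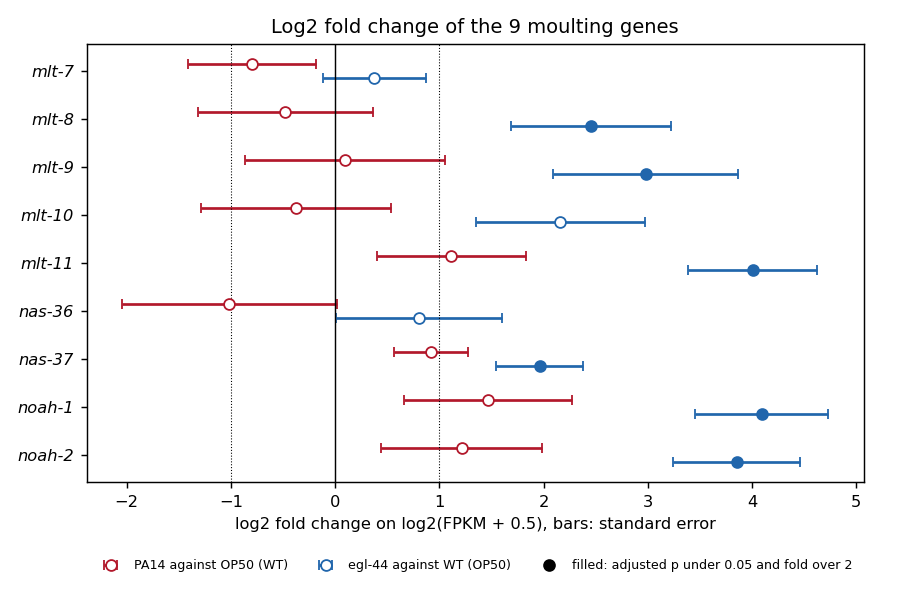
Log2 fold change of each gene, with its standard error, for PA14 against OP50 in WT worms (red) and for *egl-44* against WT worms on OP50 (blue), both against the same 3 OP50 libraries. Filled points passed the adjusted rule of limma. The PA14 values run from -1.01 to 1.47 with none filled, and the *egl-44* values from 0.38 to 4.09 with 6 filled.

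The 7 genes that passed in *egl-44* worms were also those whose *egl-44* and WT libraries did not overlap, all with the *egl-44* libraries higher. Over all genes tested, the *egl-44* libraries lay apart and higher for 34.1%. Each of the 7 had p = 0.1 by the two-sided exact permutation test. The calls of *mlt-11*, *nas-37*, *noah-1* and *noah-2* held under every alternative tried, leaving out each library included, with limma adjusted p-values no higher than 0.0143, 0.0339, 0.0141 and 0.0144. The adjusted p of *mlt-8* and *mlt-9* reached 0.093 and 0.082. The direction of *mlt-7* and *nas-36* turned without OP50 replicate 3, at log2 fold changes of -0.15 and -0.17.

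Within WT worms on OP50, the replicates differed more for these genes than for most. The median of their standard deviations on the log2 scale was 1.41 over the 9 genes, against 0.254 over all genes measured. The highest OP50 library exceeded the lowest by between 2.52 times for *nas-37* and 16.97 times for *mlt-9*. OP50 replicate 3 was the lowest for 8 of the 9 genes and replicate 1 the highest for 7. In PA14 libraries the median standard deviation was 0.964 over the 9 genes, against 0.378 over all genes, and replicate 3 was the highest for 6 of 9. In *egl-44* libraries it was 0.386, against 0.299 over all genes.

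What was called on PA14 depended on single OP50 libraries. Without OP50 replicate 1, the library with the highest summed level of the 9 genes in WT worms, 4 of them passed the unadjusted rule as higher on PA14. These were *mlt-11*, *nas-37*, *noah-1* and *noah-2*, with log2 fold changes of 1.83, 1.32, 2.23 and 1.93. Over all genes, 914 passed the unadjusted rule in either direction without that library, against 1383 with all libraries kept. Without OP50 replicate 3, 1 gene passed as lower on PA14, *mlt-8*, with a log2 fold change of -1.39. None of these calls passed after adjustment. For these fits the shares of all genes tested that were higher or lower are not given, so the counts of 4 and 1 have no background beside them. The same holds for the counts of the lists below when a library is left out. Without PA14 replicate 2, none of the 9 genes passed either rule, and their median log2 fold change was 0.46. That median was 1.10 when OP50 replicate 1 was left out, -0.82 when OP50 replicate 3 was and -0.39 when PA14 replicate 3 was, so its direction turned with single libraries.

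Summed markers of stage also differed from library to library. In WT worms on OP50 the 9 genes summed to 466, 221 and 67.3 FPKM in replicates 1, 2 and 3, while the 6 vitellogenin genes summed to 1893, 3236 and 5999 FPKM and the 14 oocyte and eggshell genes to 1344, 1881 and 3227 FPKM in the same libraries. In PA14 libraries the 9 genes summed to 132, 225 and 299.8 FPKM and the vitellogenin genes to 5556, 5614 and 1870 FPKM. The oocyte and eggshell genes summed to 3892, 4493 and 2321 FPKM there. By these sums, the library with the least yolk transcript in each WT group was the one with the most moulting transcript. Single genes differed from the sums. Among PA14 libraries, *vit-2*, *vit-5* and *vit-6* were lowest in replicate 3. *vit-1*, *vit-3* and *vit-4* were lowest in replicate 2, at 10.5, 18.6 and 24.7 FPKM, where *noah-1* and *noah-2* were highest. In *egl-44* libraries the 9 genes summed to 1260.3, 926 and 1111 FPKM. The part of stage in these differences was not tested.

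**Figure D3:**
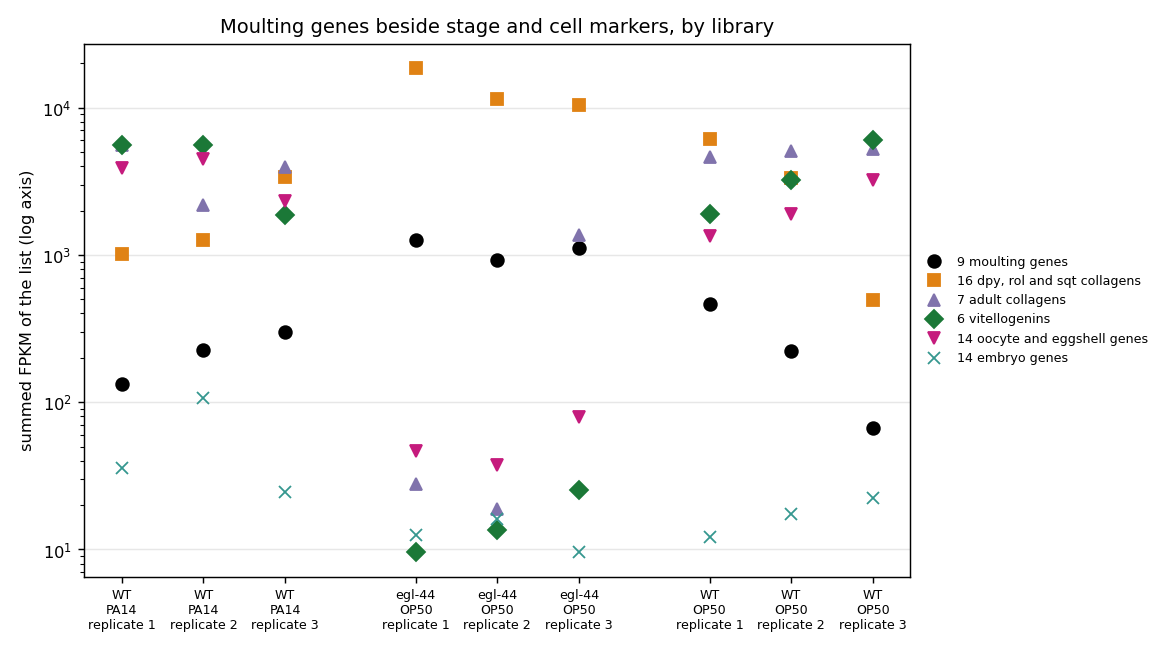
Summed FPKM (log axis) of the 9 moulting genes and of 5 other gene lists in each library, in the order PA14, *egl-44* and OP50. In the *egl-44* libraries the moulting genes (926 to 1260.3 FPKM) and the 16 *dpy*, *rol* and *sqt* collagens are high, while vitellogenin, oocyte and eggshell genes are no higher than 79.3 FPKM. In WT worms on OP50 the moulting genes run opposite to the vitellogenin genes.

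The 9 genes did not all vary in the same way. In PA14 replicate 2, *noah-1* and *noah-2* stood at 0.76 and 0.60 relative to their own mean over the 9 libraries on the log2 scale, while *mlt-7* and *nas-36* stood at -1.57 and -2.32 relative to theirs. OP50 replicate 2 had the opposite order, with *noah-1* and *noah-2* at -2.16 and -1.95 and *mlt-7* and *nas-36* at 0.67 and 1.24. The level of *noah-1* relative to *mlt-7* was 0.587, 4.73 and 0.482 in PA14 libraries and 2.61, 2.02 and 5.29 in *egl-44* libraries, against 0.456, 0.121 and 0.182 in WT libraries on OP50. It was higher in each *egl-44* library than in any OP50 library. By contrast, *nas-36* relative to *mlt-7* stayed between 0.120 and 0.409 in all 9 libraries.

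**Figure D4:**
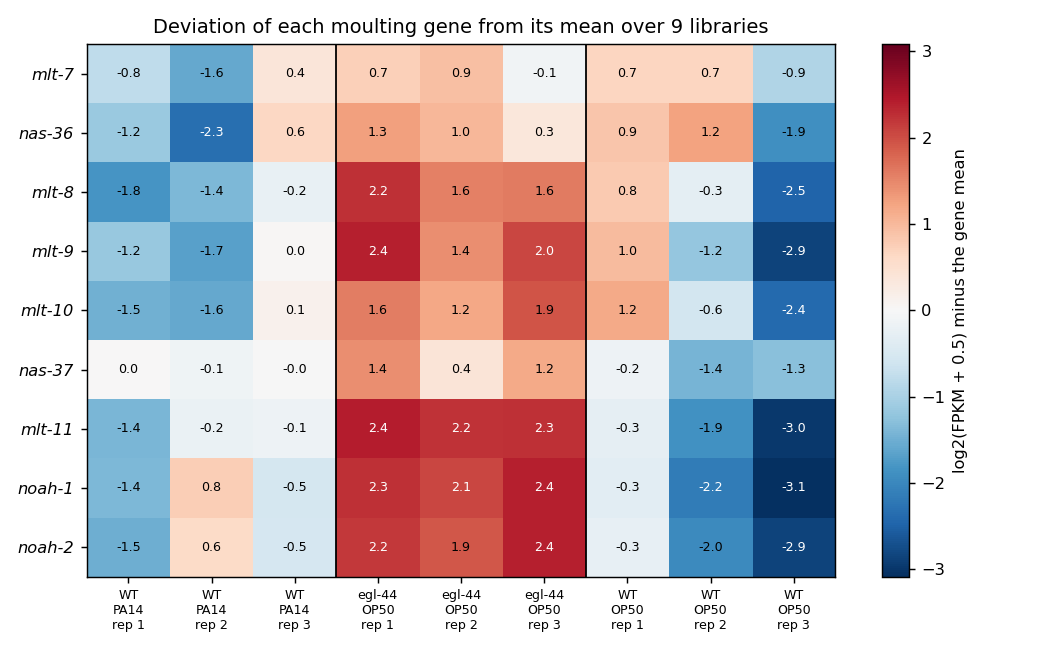
Deviation of log2(FPKM + 0.5) of each gene from its own mean over the 9 libraries, with red above and blue below the mean. *mlt-7* and *nas-36*, in the top rows, are above their means in OP50 replicates 1 and 2, where *noah-1* and *noah-2*, in the bottom rows, are below theirs.

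The other genes of the moulting programme were followed with lists, which were also chosen with earlier results of these data known. Of 13 regulators, 10 were higher in *egl-44* worms by the unadjusted rule and 9 by the adjusted rule, and none was lower. Among all genes tested, 17.9% were higher by the unadjusted rule and 16.6% by the adjusted rule. The median log2 fold change of the 13 was 2.18. *myrf-1*, a membrane-bound transcription factor, was at 58.0, 64.9 and 55.0 FPKM in *egl-44* libraries, against 11.7, 7.11 and 4.80 FPKM in WT libraries on OP50 (log2 fold change 2.92 ± 0.31 SE, limma adjusted p = 0.00063). *nhr-25*, a nuclear hormone receptor of the epidermis, *lin-42*, the worm Period homologue that paces moulting, and *pan-1*, a leucine-rich repeat protein that binds MYRF proteins, were higher by 2.86 ± 0.52, 2.64 ± 0.63 and 2.54 ± 0.18 (log2 fold change ± SE). *nhr-23*, the nuclear hormone receptor that drives moulting genes in larvae, is named here after its values were seen. It was at 30.7, 32.0 and 30.5 FPKM in *egl-44* libraries, against 28.8, 33.0 and 32.4 FPKM in WT libraries on OP50, with a log2 fold change of -0.01 ± 0.14 (SE; limma adjusted p = 0.947). On PA14 none of the 13 passed, while 2 passed as higher without PA14 replicate 1 and 1 without OP50 replicate 1.

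Of 16 genes of trafficking and signalling known to be needed for moulting, 8 were higher in *egl-44* worms by both rules and none was lower. The shares of all genes tested that were higher were 17.9% without and 16.6% with adjustment. The median log2 fold change of the 16 was 1.29. Among those that passed, the largest changes were in the hedgehog-related *qua-1* (3.07 ± 0.89), the Patched-related *ptr-4* (3.01 ± 0.74), *acn-1*, which encodes a protein like angiotensin-converting enzyme (2.60 ± 0.82), and *lrp-1*, the megalin homologue that takes up sterols (1.69 ± 0.29, all log2 fold change ± SE). None of the 16 passed on PA14. Without *egl-44* replicate 1 the count by the adjusted rule was 5.

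Of 23 tested genes of cuticle assembly and ecdysis, 11 were higher in *egl-44* worms, 9 by the adjusted rule, and none was lower. By the same rules 17.9% and 16.6% of all genes tested were higher. The median log2 fold change of the 23 was 1.15. The fibrillin-related *fbn-1* was at 34.0, 28.1 and 30.4 FPKM in *egl-44* libraries, against 0.446 to 1.20 FPKM in WT libraries on OP50 (log2 fold change 4.49 ± 0.30 SE, limma adjusted p = 0.00019). The lipocalin *lpr-3* and the leucine-rich repeat protein *sym-1*, both of the provisional matrix, were higher by 4.41 ± 0.61 and 4.20 ± 0.55 (log2 fold change ± SE). The cuticlin *cut-1* (4.25 ± 1.53) was at 37.97 and 47.4 FPKM in *egl-44* replicates 1 and 3 but at 0.205 FPKM in replicate 2, against no more than 0.140 FPKM in WT libraries on OP50. By the unadjusted rule, 6.99% of all genes tested were higher on PA14. Among them were *fbn-1* and *let-653*, a matrix protein with a zona pellucida domain (1.99 ± 0.63 and 1.20 ± 0.46). Neither of the 2 passed after adjustment. Both had their highest WT value in PA14 replicate 2, at 13.5 and 6.60 FPKM. Without OP50 replicate 1 the list had 5 genes higher on PA14, and without OP50 replicate 3 it had 0 higher and 2 lower. It had 1 higher without the filter and under either other scaling, and 0 at a mean of 5 FPKM or more.

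Cuticle collagens differed in both directions. Of 15 tested *dpy*, *rol* and *sqt* collagens, which form cuticle at moults, 14 were higher in *egl-44* worms and 11 by the adjusted rule. For all genes tested these shares were 17.9% and 16.6%. The median log2 fold change of the 15 was 3.22. *dpy-7* was at 262, 203 and 379.7 FPKM in *egl-44* libraries, against 41.6, 9.60 and 3.79 FPKM in WT libraries on OP50 (4.48 ± 0.77), and *dpy-3*, *dpy-9* and *dpy-2* were higher by 4.48 ± 0.76, 4.34 ± 0.56 and 4.30 ± 0.63 (log2 fold change ± SE). Without *egl-44* replicate 1, and likewise without the filter, the count by the adjusted rule was 6. *dpy-14* and *dpy-17*, named after their values were seen, were at 306 and 311 FPKM in PA14 replicate 2 and at or below 10.4 FPKM in the other 8 libraries. None of the 16 passed on PA14, while 4 passed as higher without OP50 replicate 1, 2 without PA14 replicate 3 and 1 without PA14 replicate 1. With all libraries kept, 2 passed as higher in 1 fit of all 9 libraries and 1 with a pseudocount of 0.1 FPKM.

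Of 7 collagens of the adult cuticle, 4 were lower in *egl-44* worms by both rules, where 23.1% of all genes tested were lower by the adjusted rule. *col-19* was at 3.64, 4.47 and 5.54 FPKM in *egl-44* libraries, against 1475 to 2221 FPKM in WT libraries on OP50 (log2 fold change -8.52 ± 0.21 SE, limma adjusted p = 2.0e-05). *col-119*, *col-7* and *col-62* had log2 fold changes of -8.24 ± 0.28, -7.78 ± 0.29 and -6.87 ± 0.38 (SE). The 3 others, *bli-1*, *bli-2* and *bli-6*, were at 216, 523 and 609 FPKM in *egl-44* replicate 3 and at or below 8.56 FPKM in *egl-44* replicates 1 and 2. Without *egl-44* replicate 3, all 7 passed as lower by the unadjusted rule and 6 by the adjusted rule. On PA14, *col-7* was at 25.4, 6.96 and 105 FPKM, against 285, 267 and 171 FPKM in WT libraries on OP50. *col-7* and *col-62* were lower by the unadjusted rule (log2 fold change -3.11 ± 0.88 and -2.50 ± 0.78 SE), as were 1.78% of all genes tested. Neither was lower by the adjusted rule (limma adjusted p = 0.179 and 0.197).

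The genes whose profile was most like the mean of the 9 moulting genes were ranked by Pearson r over the 9 libraries, among 14722 other genes. The 8 with the highest r were *F49E10.2* (0.997), *F15H10.8* (0.996), *bus-8B* (0.994), *daf-6* (0.994), *ZC123.1* (0.992), *cgr-1* (0.991), *F30H5.3* (0.991) and *T06A4.1* (0.990). *daf-6*, which encodes a Patched-related protein, was at 8.60, 6.75 and 7.82 FPKM in *egl-44* libraries and at 1.26, 1.44 and 3.00 FPKM in PA14 libraries, against 3.23, 1.72 and 0.638 FPKM in WT libraries on OP50. These r describe 9 libraries that fall into groups and differ in their summed stage markers, so no p is given. The ranking was sensitive to the libraries, since only 2 of the 8 stayed in the list without PA14 replicate 2 and between 4 and 7 without any other library.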

How the data were processed

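The authors deposited the FPKM of 20541 genes for each of 9 libraries. The submitters' processing notes name WBcel235, TopHat2 2.0.12, Bowtie2 2.2.3, HTSeq 0.6.1 and DESeq 1.18.0. No source used here gives strandedness or the treatment of shared reads. Coordinates are from the Ensembl annotation of WBcel235. Symbols were matched for 19587 identifiers. Whole reads were recovered from the FPKM steps for 100% of 19711 genes above 0, within 0.01 read.

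Each comparison was fitted with limma 3.58.1 (trend) in R 4.3.3 on log2(FPKM + 0.5) over 6 libraries, keeping genes that averaged 0.5 FPKM or more. Fold changes are on this scale, which understates those of low genes. Adjusted p-values are Benjamini-Hochberg values over all genes tested. Permutation tests are exact and two-sided. Figures were drawn with Python 3.11.15 and matplotlib 3.10.9. The main fit of each comparison was first tested on simulated data, with the spread taken from the OP50 libraries. The alternative fits were not tested in this way.

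The members, the lists and the rules were chosen with earlier results of these data known. The text names the 9 members, *egl-44*, up to 4 called genes per list and comparison by largest change among those whose groups do not overlap, and the 8 most alike genes, with marker genes as values. The lists were regulators, trafficking and signalling, cuticle assembly, *dpy*, *rol* and *sqt* collagens and adult collagens, and markers of embryo, oocyte and eggshell, yolk, gut, muscle, neuron and germline. By the unadjusted rule, 6.99% of all genes tested were higher on PA14. Of the marker genes, 1 embryo gene (*ref-1*) and 1 neuron gene were higher, and no oocyte, yolk, gut, muscle or germline gene passed. Single libraries decided these counts. Without PA14 replicate 3, 8 of 8 embryo and 6 of 14 oocyte genes were higher. The calls over all genes, in either direction, also rose without that library, from 1383 to 2595. Without OP50 replicate 3, 2 of 9 embryo and 7 of 14 oocyte genes were higher, while all other omissions gave 1 or 2 embryo genes and 0 oocyte genes. In *egl-44* worms 5 of 7 neuron and 2 of 5 gut genes were higher, 1 of 3 tested embryo genes was lower, and no muscle gene passed. Among all genes tested, 17.9% were higher and 23.4% lower by the unadjusted rule.

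Alternatives were pseudocounts of 0.1 and 1, dropping the filter or raising it to 5 FPKM, scaling by median of ratios or by quantiles, fitting all 9 libraries at once, blocking by replicate, omitting each library in turn, and limma voom on the recovered reads. Promoter and protein sequences were not used here.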

Additional observations from a re-analysis of the deposited data

How the results depend on the processing

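On PA14, 0 of the 9 moulting genes passed the unadjusted rule and 0 the adjusted rule, and leaving out each library gave 0 to 4 by the unadjusted rule and 0 by the adjusted rule (4 without OP50 replicate 1 and 1 without OP50 replicate 3). Every other alternative gave 0 by both rules. In *egl-44* worms 7 passed the unadjusted rule and 6 the adjusted rule. Leaving out each library gave 5 to 7 and 4 to 7, no filter gave 6 and 4, and 1 fit of all 9 libraries and limma voom gave 7 by the adjusted rule. On PA14 the log2 fold change of *mlt-9* turned to -0.15 under median-of-ratios scaling and to -0.13 under quantile normalization. Leaving out each library, it ranged between -0.82 and 1.10, that of *mlt-8* between -1.39 and 0.25 and that of *mlt-10* between -1.28 and 0.50. In *egl-44* worms leaving out each library gave -0.15 to 0.70 for *mlt-7* and -0.17 to 1.39 for *nas-36*. Over all alternatives and single moulting genes, 124 values kept direction and side of the threshold on PA14, 5 came past it and 6 turned direction, while 126 kept both in *egl-44* worms, 7 no longer passed and 2 turned direction. The cause of these changes was not tested.

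Over all genes, 1383 were called on PA14, 79.7% of them higher. This share was 52.0% with median-of-ratios scaling, 43.9% with quantile normalization and 61.7% without PA14 replicate 3, and these scalings moved the median of all genes from 0.25 to 0.01 and 0.03. The count was 786 at a mean of at least 5 FPKM, 918 without PA14 replicate 2, 2595 without PA14 replicate 3 and 914 without OP50 replicate 1. After adjustment 126 were called, and the alternatives gave between 3 and 293. In *egl-44* worms, 43.4% of called genes were higher, or 59.2% with quantile normalization. Of 6405 called genes, and 6149 after adjustment, the mean of at least 5 FPKM gave counts of 4146 and 4030.

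Whether the replicate numbers pair the libraries could not be settled, since deviations within a group of 3 libraries are not independent. The correlation of same-numbered deviations was -0.19, -0.24 and -0.55 on PA14 and 0.08, 0.06 and 0.09 in *egl-44* worms. That of different-numbered deviations ranged from -0.31 to 0.49 on PA14 and from -0.19 to 0.20 in *egl-44* worms. With a replicate block, 0 of the 9 genes passed on PA14 and 7 in *egl-44* worms, 6 of them after adjustment, and 3 genes passed after adjustment on PA14 over all genes. On PA14 it gave 1 higher of the 16 *dpy*, *rol* and *sqt* collagens and 1 of the cuticle assembly genes. With 3 libraries a group, the smallest exact p is 0.1. Promoter motifs and protein features were not run.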
